A study of Homo sapiens with 4 samples.

Results

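The early growth response (EGR) factors, the NR4A orphan nuclear receptors and the NAB corepressors were followed in TPC1 cells with and without a RET inhibitor. The 9 genes EGR1, EGR2, EGR3, EGR4, NR4A1, NR4A2, NR4A3, NAB1 and NAB2 were taken by symbol from the 20372 gene rows of the RNA sequencing table, and all 9 were found once. TPC1, a cell line from a human papillary thyroid carcinoma, has a fusion of CCDC6 with the RET kinase gene, so both groups carried the fusion. Both were grown in DMEM with 10% FBS. Cells received the RET inhibitor BLU6864 for 6 h (2 libraries) or the solvent DMSO (2 libraries). Per the labels the DMSO samples have no time, while their deposited columns carry 24 h, so the time in culture and the inhibitor cannot be told apart. The dose of BLU6864 is uncertain, because the labels give 100 micromolar and the study's text gives 100 nM. All libraries come from 1 cell line, and nothing says that the 2 libraries of a group came from separate cultures, so p-values measure only the spread between these libraries.

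Immediate early genes are transcribed within minutes of a mitogenic signal without the need for new protein. EGR factors are zinc finger proteins that bind GC-rich DNA, and ERK switches their genes on largely through SRF and its ternary complex partners at CArG boxes. NR4A receptors have no known physiological ligand and are controlled by how much of them is made, in which cAMP, CREB and calcium signals take a large part. NAB proteins bind EGR factors and repress their activity, and NAB2 is itself induced by EGR1 in other cells, which closes a feedback loop.

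The stretches of promoter DNA before 4 of the genes are printed because they differ in the sites known for these signals. They are RefSeq promoters on GRCh38.p14 and hold the bases 250 to 31 before the annotated start, 5′ to 3′ on the strand of the gene. Capitals mark CArG boxes (bound by SRF), TGACG or its reverse complement CGTCA (the core of a CREB site) and GCGGGGGCG (a site that EGR factors can bind).
EGR1, chr5:138465229-138465448, plus strand: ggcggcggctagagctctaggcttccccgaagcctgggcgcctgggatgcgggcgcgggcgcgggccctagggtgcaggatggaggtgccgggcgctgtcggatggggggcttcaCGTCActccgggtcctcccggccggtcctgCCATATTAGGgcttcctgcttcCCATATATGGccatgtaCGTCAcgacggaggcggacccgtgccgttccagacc
EGR2, chr10:62816397-62816616, minus strand: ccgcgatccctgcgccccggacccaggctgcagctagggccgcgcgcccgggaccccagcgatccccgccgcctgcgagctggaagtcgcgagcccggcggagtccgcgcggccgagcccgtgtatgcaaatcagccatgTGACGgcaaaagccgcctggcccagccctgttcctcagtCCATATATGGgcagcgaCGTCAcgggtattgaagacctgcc
NR4A3, chr9:99821635-99821854, plus strand: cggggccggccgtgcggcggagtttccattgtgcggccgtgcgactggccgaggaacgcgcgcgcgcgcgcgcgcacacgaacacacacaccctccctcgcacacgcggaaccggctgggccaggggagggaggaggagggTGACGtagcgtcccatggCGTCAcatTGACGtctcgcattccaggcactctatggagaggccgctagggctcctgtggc
NAB2, chr12:57088864-57089083, plus strand: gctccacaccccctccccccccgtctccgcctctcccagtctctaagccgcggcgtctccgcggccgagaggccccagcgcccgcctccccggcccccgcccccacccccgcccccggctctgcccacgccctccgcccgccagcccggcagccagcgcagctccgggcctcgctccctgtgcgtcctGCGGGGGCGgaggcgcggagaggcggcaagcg

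The EGR1 stretch holds 2 CArG boxes, 105 to 96 and 83 to 74 bases before the start, each between the 2 CGTCA matches at 135 to 131 and 66 to 62. The EGR2 stretch holds 1 CArG box at 71 to 62, also between 2 matches of the CREB core. A CArG box stood in 1.16% of all 35114 RefSeq promoters searched over the same 250 bases on both strands, and a CArG box together with TGACG stood in 0.194%. The NR4A3 promoter had no CArG box and 4 TGACG matches, the last of them at 25 to 21 and so outside the printed stretch. TGACG stood in 21.2% of promoters, and 0.236% held 4 or more matches. The NAB2 promoter had 1 GCGGGGGCG, a motif found in 4.72% of promoters.

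Promoters of 7 members were searched, with 12 annotated windows in all. EGR3 and NR4A2 had no entry among the promoters, so their sites were not searched. No other window held a CArG box, including the other 2 windows of EGR2, which had none of the motifs. EGR4 had 2 TGACG matches, and the windows 2 and 3 of NAB1 had 1 each. Of the 2 NR4A1 windows 1 had 1 CCGGAA, the core of an ETS factor site, which stood in 14.5% of promoters. The 3 windows of NAB1, of which the first 2 share bases, held 2, 2 and 0 GCGGGGGCG matches, with overlapping letters within each pair. Both pairs are the same 2 sites, which lie in the shared bases. The second window also held GCGTGGGCG, an EGR site found in 0.721% of promoters. The full CREB site TGACGTCA (1.65% of promoters) and the NR4A monomer site AAAGGTCA (1.05%) stood in none of the 12 windows. These are matches of letters and were not tested for binding. The promoters do not share the build of the count table, which is hg19.

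The libraries held 23750509 to 28305571 counts, and 14855 to 15187 genes had reads in a library. Levels are the authors' normalized counts, in which each count is divided by 1 size factor per library. TPC1 identity was checked with thyroid markers. PAX8, a transcription factor of thyroid cells, had 19124 to 29985 reads. TG had 186 to 444 reads, FOXE1 had 273 to 459 and HHEX had 190 to 318. TSHR and NKX2-1 had 0 reads in all libraries and SLC5A5 had at most 7. The label of a thyroid line therefore rests on PAX8 and 3 weaker markers. The summed thyroid markers were at 20777 and 22212 normalized counts with BLU6864 and 28563 and 27131 with DMSO. Of 9 leukocyte, endothelial and fibroblast markers 8 were in the table. COL1A1 had 144 to 237 reads and PDGFRB had 173 to 373, both overlapping the range of TG, and CD14 had 15 to 47. Of these 8 markers, CD3E, COL3A1 and DCN were at 0 and PTPRC had 1 to 5 reads. Their sum was 599 and 614 normalized counts with BLU6864 and 408 and 367 with DMSO, and the 3 that could be tested (CD14, COL1A1, PDGFRB) were all higher, against 1 without BLU6864 replicate 1. The 4 tested thyroid markers were all called lower, against 1 without BLU6864 replicate 2. Of 5 epithelial markers 4 were tested, with 1 called lower and 1 higher. Over all tested genes 22.0% were called lower and 20.3% higher, at an edgeR adjusted p under 0.05. The part of these marker differences in the results was not tested.

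With BLU6864, EGR1, EGR2, EGR3, NR4A1 and NAB2 fell, NR4A2 and NR4A3 rose, NAB1 did not pass the test, and EGR4 had no reads. The test was edgeR's quasi-likelihood F test over the 12696 genes left by its filter for low counts, called at a Benjamini-Hochberg adjusted p under 0.05. In this comparison 42.2% of all tested genes were called, 22.0% lower and 20.3% higher, against 7 of the 8 tested members (5 lower and 2 higher). The filter asked for about 10 reads, scaled to library size, in any 2 libraries. EGR3 passed it only through the DMSO libraries, where it was high, so at its low BLU6864 level its entry into the test depended on its DMSO level. Without EGR3, 6 of 7 tested members were called, 4 lower and 2 higher, with a median of -0.60. Without BLU6864 replicate 2 the edgeR count of members higher was 0 (1 at an unadjusted p under 0.05), and without DMSO replicate 1 it was 1. The median log2 fold change of the 8 tested members was -0.65, against 0.01 over all tested genes. The libraries of both groups did not overlap for any of the 8 members, a pattern seen in 70.8% of all tested genes (35.7% with BLU6864 lower and 35.1% with BLU6864 higher, against 6 and 2 members). In bulk RNA, fewer cells expressing a gene and less RNA per cell cannot be told apart.

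**Figure D1:**
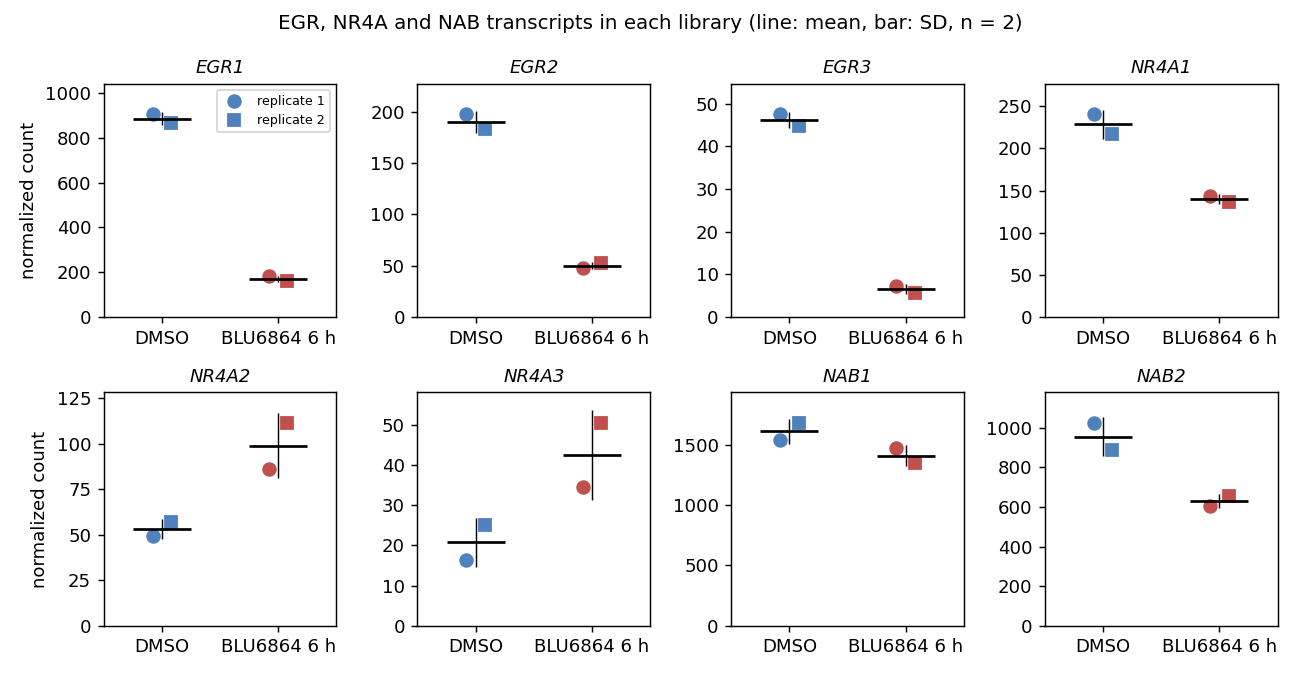
Normalized counts of the 8 members with reads, 1 panel per gene with its own linear axis from 0, with circles for replicate 1, squares for replicate 2, a line at the group mean and a bar of 1 SD (n = 2). The BLU6864 libraries sit below both DMSO libraries for EGR1, EGR2, EGR3, NR4A1, NAB1 and NAB2 and above them for NR4A2 and NR4A3.

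EGR1, the best known of the EGR factors and a direct readout of ERK activity in many cells, lies on hg19 at chr5:137801179-137805004 (ENSG00000120738). Its normalized counts were 180.7 and 159.2 in the BLU6864 libraries and 907 and 866 in the DMSO libraries. The groups were far apart, and the 2 libraries within each were close. The means were 170.0 ± 15.2 and 886 ± 29.4 (SD, n = 2 each), and the log2 fold change was -2.38 ± 0.13 (SE, edgeR adjusted p = 4.7e-14), a level 5.21-fold lower. Of all tested genes 0.567% had a lower log2 fold change. EGR1 transcript remained after 6 h of inhibitor, at 172 and 170 reads.

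EGR2, a factor known for Schwann cell myelination and for restraint of T cells, lies at chr10:64571756-64679660 (ENSG00000122877). Its normalized counts were 47.3 and 52.5 with BLU6864 and 197.7 and 182.7 with DMSO. Again the groups were separated by much more than the distance within them. From 190.2 ± 10.6 to 49.9 ± 3.66 normalized counts (SD, n = 2 each), its level was 3.79-fold lower, with a log2 fold change of -1.92 ± 0.19 (SE, edgeR adjusted p = 3.3e-09).

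EGR3 (ENSG00000179388), which shares targets with EGR1 and is known for muscle spindle development, was the scarcest EGR factor with reads. The BLU6864 libraries held 7 and 6 of its reads and the DMSO libraries 52 and 41, or 7.35 and 5.62 against 47.6 and 44.9 normalized counts. The BLU6864 libraries were both near the limit of detection, where 3 reads equal 2.81 to 3.15 normalized counts. Its log2 fold change was -2.82 ± 0.38 (SE, edgeR adjusted p = 1.1e-06). This p belongs to a gene that entered the test through its DMSO level alone. With no filter on low counts the log2 fold change was also -2.82 (edgeR adjusted p = 2.8e-11). The pooled reads, scaled for edgeR's library sizes, gave a DMSO level 7.18 times that with BLU6864, with an exact 95% binomial interval of 4.0 to 14.0. This and the other intervals from reads cover counting error only. The same ratio was 5.23 (4.65 to 5.89) for EGR1, and as the intervals overlap the order of both genes was not resolved at this depth.

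EGR4 (ENSG00000135625, chr2:73518058-73520833), a member of the family studied mainly in neurons and germ cells, had 0 reads in all 4 libraries. At this depth a count of 0 allows up to 0.106 to 0.126 CPM, the count scaled to a common library total, so no difference could be measured. The DMSO group set the scale of the family, with a summed EGR level of 1152 and 1093 normalized counts, against 235 and 217 with BLU6864.

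The make-up of the EGR reads differed little between the groups. EGR1 made up 78.7% and 79.2% of the EGR reads with DMSO and 76.8% and 73.3% with BLU6864. The 95% Wilson intervals of this share overlapped in all 4 libraries. EGR2 held 17.2% and 16.7% of the reads with DMSO and 20.1% and 24.1% with BLU6864.

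NAB2, the corepressor whose gene EGR1 induces, lies at chr12:57482677-57489259 (ENSG00000166886). Its normalized counts were 605 and 656 with BLU6864 and 1025 and 886 with DMSO. Both BLU6864 libraries were lower than both DMSO libraries, although the DMSO libraries differed from each other by more than counting error, with a replicate ratio of 0.864 (exact 95% interval 0.788 to 0.946). NAB2 was 1.51-fold lower with BLU6864, a log2 fold change of -0.60 ± 0.12 (SE, edgeR adjusted p = 1.6e-04). The NAB2 row shares 69 bases with STAT6, which had 4438 to 6000 reads, and the strand setting of the counting is not given in the sources used here, so some reads may be shared.

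NAB1 (ENSG00000138386, chr2:191511472-191557492), the paralog of NAB2 and more evenly expressed in most tissues, had 1472 and 1349 normalized counts with BLU6864 and 1540 and 1682 with DMSO. The groups were next to each other without overlap. The log2 fold change of -0.19 ± 0.11 (SE) did not pass the test (edgeR adjusted p = 0.160). Without DMSO replicate 1 it was -0.26 and passed (adjusted p = 0.0162).

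EGR1 was thus reduced further than its corepressor. Within a library, which removes the scaling, EGR1 had 0.299 and 0.243 reads per NAB2 read with BLU6864 and 0.885 and 0.977 with DMSO. NAB2 gave 29.1% and 32.7% of the NAB reads with BLU6864 and 39.97% and 34.5% with DMSO.

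**Figure D2:**
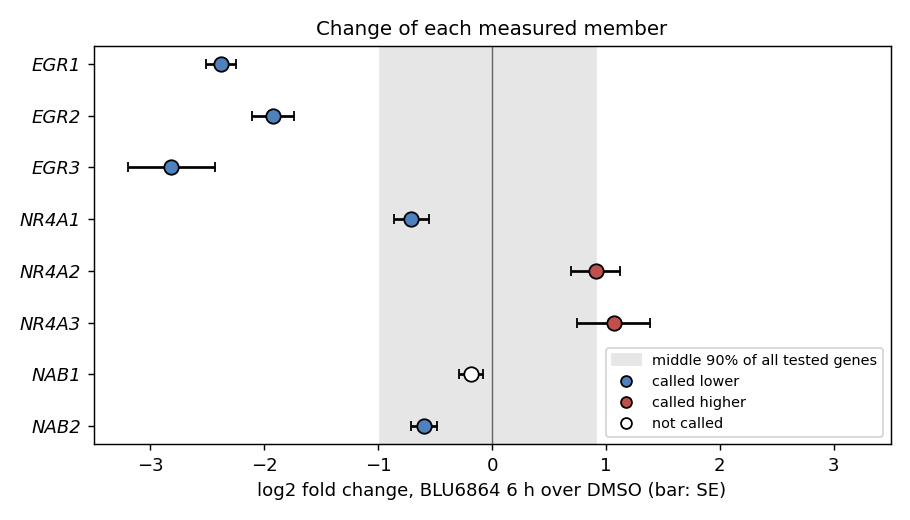
Log2 fold change of each of the 8 tested members, BLU6864 over DMSO, with bars of 1 SE and the shaded band holding the middle 90% of all tested genes (-0.98 to 0.92). EGR1, EGR2 and EGR3 lie far below the band, NR4A3 lies just above it, and NR4A1, NR4A2, NAB1 and NAB2 lie inside it.

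The 3 NR4A receptors did not move together. NR4A1 (Nur77), the member most often described as an immediate early gene, fell, while NR4A2 (Nurr1), known for dopaminergic neurons, and NR4A3 (NOR1) rose. NR4A1 lies at chr12:52416616-52453291 (ENSG00000123358) and had 143.9 and 135.8 normalized counts with BLU6864 and 240.7 and 216.7 with DMSO. The groups did not overlap, and their distance exceeded the spread within each. The log2 fold change was -0.71 ± 0.15 (SE, edgeR adjusted p = 4.7e-04), a level 1.63-fold lower, and 8.29% of all tested genes had a lower value.

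NR4A2 (ENSG00000153234, chr2:157180944-157198860) had 86.2 and 111.5 normalized counts with BLU6864 and 49.4 and 56.9 with DMSO. BLU6864 replicate 2 was the highest library, and the lowest BLU6864 library was above both DMSO libraries. The log2 fold change was 0.91 ± 0.21 (SE, edgeR adjusted p = 0.00125), a level 1.88-fold higher, from 53.2 ± 5.28 to 98.8 ± 17.9 normalized counts (SD, n = 2 each). Of all tested genes 5.10% had a higher value. Without BLU6864 replicate 2 the log2 fold change was 0.70 and NR4A2 no longer passed (adjusted p = 0.0967).

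NR4A3 (ENSG00000119508, chr9:102584137-102629173) had 34.7 and 50.6 normalized counts with BLU6864 and 16.5 and 25.2 with DMSO, on 33, 54, 18 and 23 reads. In each group replicate 2 was higher than replicate 1, with replicate ratios of 1.47 (exact 95% interval 0.934 to 2.33) and 1.53 (0.788 to 3.0), which counting error alone allows. The share of mitochondrial reads was also higher in replicate 2, at 1.65% and 2.43% with BLU6864 and 1.17% and 2.51% with DMSO. Its part in NR4A2 and NR4A3 was not tested. The NR4A3 level was 2.10-fold higher with BLU6864, a log2 fold change of 1.07 ± 0.32 (SE, edgeR adjusted p = 0.00871). NR4A3 no longer passed when BLU6864 replicate 2 was left out (0.75, edgeR adjusted p = 0.282), when DMSO replicate 1 was left out (0.77, edgeR adjusted p = 0.0878) or when DESeq2 was used (1.05, adjusted p = 0.107). NR4A3 thus stayed higher in each of these fits, and whether it passed the test depended on them.

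The summed NR4A level lay close together in both groups, at 265 and 298 normalized counts with BLU6864 and 307 and 299 with DMSO. The make-up of these reads differed. NR4A1 made up 54.4% (95% Wilson interval 48.2 to 60.4%) and 45.6% (40.2 to 51.1%) of the NR4A reads with BLU6864, and 78.5% (73.8 to 82.6%) and 72.5% (66.9 to 77.5%) with DMSO. The intervals of the 2 groups did not meet. NR4A2 held 32.5% and 37.4% in the BLU6864 libraries and 16.1% and 19.0% in the DMSO libraries, and NR4A3 held 13.1% and 17.0% against 5.37% and 8.42%. Shares of reads follow transcript length as well as the number of transcripts, so these shares compare libraries, not genes.

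**Figure D3:**
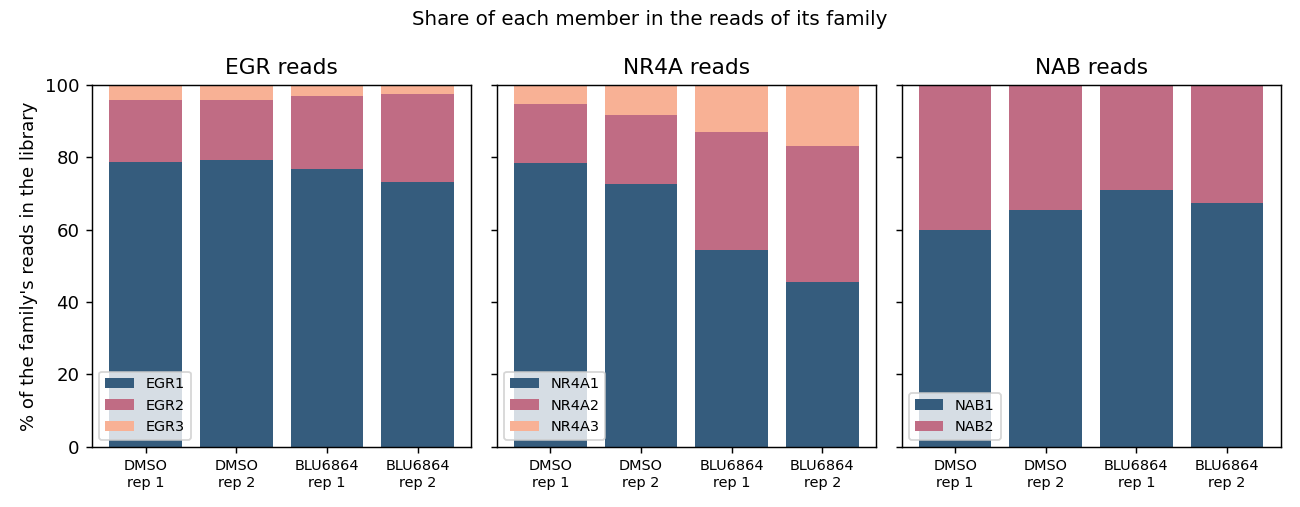
Share of EGR, NR4A and NAB reads held by each gene in each library, as stacked bars from 0 to 100%. EGR1 takes 73.3 to 79.2% of the EGR bars, whereas NR4A1 takes 72.5 to 78.5% of the NR4A bars with DMSO and 45.6 to 54.4% with BLU6864.

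EGR1 and the NR4A receptors also parted within each library. EGR1 had 18.4 and 15.2 reads per NR4A2 read with DMSO and 2.10 and 1.43 with BLU6864. It had 3.77 and 3.99 reads per NR4A1 read with DMSO and 1.26 and 1.17 with BLU6864. NR4A1 and NAB2, by contrast, stood at a ratio of 0.235 and 0.244 with DMSO and 0.238 and 0.207 with BLU6864.

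Levels were compared between genes per kilobase of the GENCODE 44 canonical transcript, which was found for all 9 members. With DMSO the order was NAB2 (384 normalized counts per kb), NAB1 (357), EGR1 (283), NR4A1 (92.0), EGR2 (63.9), NR4A2 (15.3), EGR3 (10.2) and NR4A3 (3.72), with EGR4 at 0. NAB2 and NAB1 overlapped between libraries, and the other neighbours did not. With BLU6864 the order was NAB1 (313), NAB2 (253), NR4A1 (56.3), EGR1 (54.2), NR4A2 (28.5), EGR2 (16.7), NR4A3 (7.61) and EGR3 (1.44). Here only NR4A1 and EGR1 overlapped. EGR1 had come down to the level of NR4A1, and NR4A2 stood above EGR2 and NR4A3 above EGR3, both of which were the other way round with DMSO.

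**Figure D4:**
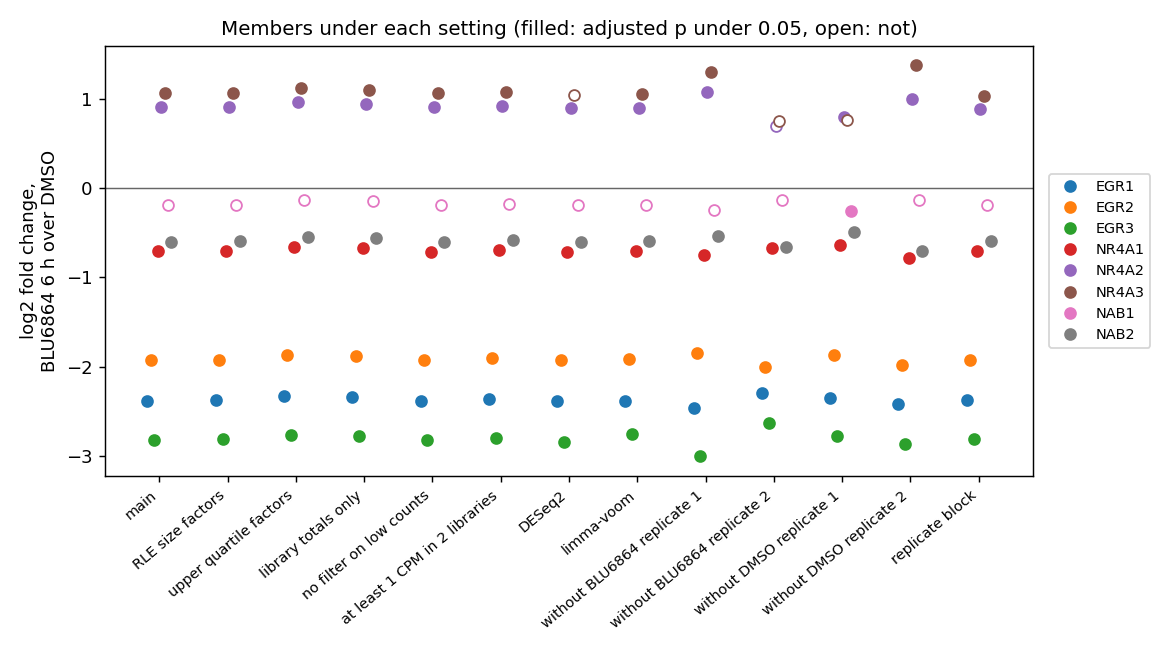
Log2 fold change of the 8 tested members under each setting of the analysis, filled where the adjusted p was under 0.05 and open where it was not. EGR1, EGR2, EGR3, NR4A1 and NAB2 are filled in every setting shown, NR4A2 is open in 1 of the alternatives and NR4A3 in 3, and no gene crosses 0.

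The genes whose levels over the 4 libraries were most like each member were found among 10686 genes with a mean of at least 100 normalized counts, by the distance between centred log2 values. With 4 libraries in 2 groups this measure mostly finds genes with a similar difference between the groups. For EGR1 they were SH2D2A, an adaptor protein of T cells (distance 0.101), FOSB, an AP-1 factor (0.116), and NR2F1, an orphan nuclear receptor (0.144). FOSB went from 1035 and 917 normalized counts with DMSO to 212.2 and 185.5 with BLU6864. For EGR2 the nearest was DOT1L, a histone methyltransferase (0.0802), and for EGR3 EMP1, a membrane protein (0.196), and DUSP6, an ERK phosphatase (0.231).

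NR4A1 was nearest to MRGBP, a subunit of a histone acetyltransferase complex (0.00865), and NAB2 to MPRIP, a regulator of myosin phosphatase (0.0292). NAB1 was nearest to MMGT1 (0.0145). The rising receptors were nearest to AGR2, a protein disulfide isomerase (NR4A2, 0.120), and PSMA6, a proteasome subunit (NR4A3, 0.124). PSMA6 had 196 and 321 normalized counts with DMSO and 392 and 612 with BLU6864, so it was also higher in replicate 2 of both groups.

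SRF, its MRTF coactivators and the ternary complex factors are regulators known to act on EGR genes. Of these 6 genes 4 were called lower and 0 higher, beside 22.0% lower and 20.3% higher of all tested genes. Their median log2 fold change was -0.47. At a log2 fold change beyond 0.5 with an edgeR p under 0.01, 3 were lower. Here and in the list of NR4A targets, the direction with 0 calls in edgeR also had 0 genes at an unadjusted p under 0.05 and 0 calls with DESeq2 or limma. ELK3, a ternary complex factor, fell by 1.23 on the log2 scale (SE 0.11, edgeR adjusted p = 1.3e-09), the MRTF gene MKL2 fell by 0.67 and SRF fell by 0.55. ELK1 also fell, and it lies outside the rule for named genes. Of 11 genes for CREB and MEF2 factors and their coactivators, which act on NR4A genes, 2 were called lower and 1 higher, with a median of -0.10. Neither share was above that of all tested genes (22.0% lower and 20.3% higher), and the count higher was 0 without BLU6864 replicate 2 (also 0 at an unadjusted p under 0.05 in edgeR) and 2 without DMSO replicate 1. CREM, which encodes cAMP response factors including a repressor of cAMP-driven genes, fell by 1.06 (SE 0.11, edgeR adjusted p = 2.5e-08). CREBBP, an acetyltransferase that CREB recruits, rose by 0.44 (SE 0.11, edgeR adjusted p = 0.00227). It no longer passed without BLU6864 replicate 2 (adjusted p = 0.195). MEF2D fell by 0.34 (SE 0.11, edgeR adjusted p = 0.0177), which did not hold without BLU6864 replicate 1, BLU6864 replicate 2 or DMSO replicate 1 (adjusted p = 0.263, 0.138 and 0.108).

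The EGR genes fell in the company of other early genes. Of 16 other immediate early genes 9 were called lower and 2 higher, beside 22.0% lower and 20.3% higher of all tested genes. Their median log2 fold change was -0.39. FOSL1 fell by 3.32, FOSB fell by 2.29 and JUN fell by 2.13, all AP-1 subunits, with SEs of 0.12 to 0.13 (edgeR adjusted p = 1.4e-17, 9.0e-14 and 2.1e-13). The genes called higher were ATF3, a stress-induced factor (1.10), and DUSP1, a phosphatase of MAP kinases (0.27), named after their values were seen, and the count of higher genes was 1 without either BLU6864 library. Of 13 genes known to follow ERK activity, 13 were called lower, beside 22.0% of all tested genes. Their median of -2.07 was near the values of EGR1 and EGR2. This list was chosen with earlier results of these data known. The study also names SPRY1/2 and DUSP4 in a signature of genes that fell after BLU6864 and then rebounded in TPC1 cells. These libraries were deposited with that study, so the fall of SPRY2 and DUSP4 is not independent of how they were chosen. SPRY2, which dampens signals from receptor kinases, fell by 3.29, and CCND1, which encodes cyclin D1, fell by 3.30. FOSL1 and IER3 stand in both of these lists.

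**Figure D5:**
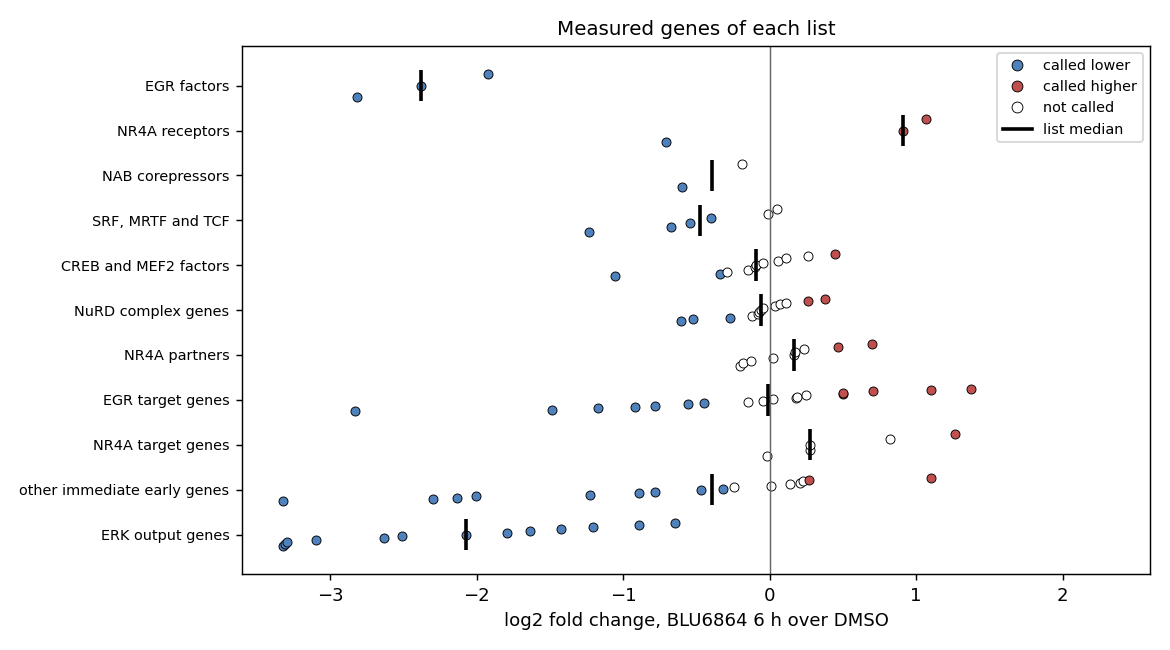
Log2 fold change, BLU6864 over DMSO, of each measured gene in the 3 member families and 8 lists, with 1 point per gene, coloured by its call, and a bar at the list median. The EGR factors (median -2.38) lie in the range of the ERK output genes (median -2.07), and the lists of EGR target genes and of CREB and MEF2 factors spread to both sides of 0. The EGR median includes EGR3, which entered the test only through its DMSO level.

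Genes described as EGR targets in other cells moved in both directions. Of 18 tested genes 7 were called lower and 5 higher, beside 22.0% lower and 20.3% higher of all tested genes. Their median log2 fold change was -0.01 against 0.01 in all tested genes. Without BLU6864 replicate 1 the count higher was 2. F3, which encodes tissue factor, fell by 1.48 (SE 0.13, edgeR adjusted p = 4.2e-10), and VEGFA, the main angiogenic growth factor, fell by 1.17 (SE 0.12, edgeR adjusted p = 9.3e-09). GDF15, a stress cytokine, rose by 1.37 (SE 0.11, edgeR adjusted p = 1.5e-10), from 512 ± 24.4 to 1322 ± 57.6 normalized counts (SD, n = 2 each). Of 16 genes described as NR4A targets in other cells, 8 had no reads and 5 were tested. Of these 5, 0 were called lower and 1 higher, a share near the 20.3% called higher of all tested genes. The gene called higher was ENO3, muscle enolase, at 63 and 87 reads in the BLU6864 libraries and 35 and 27 in the DMSO libraries. Its log2 fold change was 1.26 ± 0.25 (SE, edgeR adjusted p = 2.0e-04). Many genes of that list are known from neurons, steroid-producing cells and liver, and the 8 without reads include VIP, POMC and CYP11B2. Without DMSO replicate 2, and with DESeq2, the count higher was 2.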

How the data were processed

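RNA sequencing counts of 4 TPC1 libraries were analysed, 2 of BLU6864 at 6 h and 2 of DMSO, grouped by their labels. Per the labels, 50 bp single-end reads of TruSeq libraries were obtained on a HiSeq, and both BLU6864 titles carry a mark of re-analysis. The submitters' processing notes name STAR 2.3, hg19 and DESeq2. In the study's methods the reads are paired-end and STAR is a later release. For the counting tool, annotation release and strand setting: not given in the sources used here.

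The authors deposited raw counts per gene and normalized counts, a signal in which the count is scaled by a DESeq2 size factor, 1 for each library, and their mean. The deposited log2 fold changes with SEs, the Wald score and the p-values of the authors' own comparison were not used. Of 20372 rows 4143 had no reads, and 90 repeat a symbol.

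The main test on the counts was a two-sided quasi-likelihood F test in edgeR 4.0.16 (R 4.3.3) with filterByExpr, TMM factors, no covariate besides group, and Benjamini-Hochberg adjustment over all tested genes. SEs were obtained as the size of the log2 fold change over the root of F. The library totals given are sums over all rows. Ratios of reads between groups or replicates were scaled by edgeR's library sizes with TMM factors. They have exact binomial intervals, and shares have Wilson intervals, which cover counting error only. Alternatives were RLE, upper quartile and library-total scaling, no filter on low counts, a filter of 1 CPM in 2 libraries, DESeq2 1.42.0, limma 3.58.1 (voom), each library left out in turn, the replicate number as a block, and a log2 fold change beyond 0.5 with p under 0.01. The fit was also run on simulated counts in which 200 genes were changed. That is far fewer than the 5364 genes called here, so the run does not give the error rates of this comparison.

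Members, gene lists and rules were chosen with earlier results of these data known. The rule named the members, up to 3 called genes per list by smallest adjusted p, and the 3 genes of nearest pattern for each member by Euclidean distance of centred log2(normalized count + 1). Part of these is printed. Gene coordinates are those of the deposited table. Transcript lengths were taken from GENCODE 44 by gene identifier. Promoters were read from RefSeq (GRCh38.p14), and 7 of the 9 symbols were matched. The values of 1 thyroid marker are not reported here.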

Additional observations from a re-analysis of the deposited data

How the results depend on the processing

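EGR1, EGR2, EGR3, NR4A1 and NAB2 passed at an adjusted p under 0.05 in the main analysis and in all 12 alternative fits, which include DESeq2 and limma, with adjusted p up to 1.5e-11, 9.2e-08, 6.5e-05, 0.0226 and 0.0201. EGR3 passed the main filter only through the DMSO libraries, so its calls under a filter are not independent of its level. NR4A2 passed in 11 of 12 (adjusted p 7.6e-05 to 0.0967) and NR4A3 in 9 of 12 (0.00283 to 0.282), and NAB1 in 1 of 12 (0.0162 to 0.702). The calls that changed are given in the report. No log2 fold change of the 36 named genes changed sign. The count of members called higher was 1 with DESeq2 and ran from 0 (without BLU6864 replicate 2) to 2 with 1 library left out. The cause was not tested. Leaving out 1 library left a group with 1 sample, which was assumed to vary like the other group.

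Over all genes, 5364 were called (2790 lower and 2574 higher). With 1 library left out the count ran from 2740 (without BLU6864 replicate 2) to 6932, with 1490 to 3621 lower and 1250 to 3311 higher, and it was 3136 without BLU6864 replicate 1. At a log2 fold change beyond 0.5 with p under 0.01 it was 2981, with 1584 lower and 1397 higher, a stricter rule. With the replicate number as a block, 5963 genes were called and no member's call changed, while the counts called higher went from 1 to 2 for NR4A target genes, from 2 to 3 for NR4A partners and from 5 to 6 for EGR target genes. The deviations of same-numbered libraries correlated at 0.142 over 12696 genes, but with 2 pairs the libraries share only a number. Of 286 list counts 34 moved by over 1.5 times, most of them counts of a few genes. The floor of 3 reads limits EGR3 with BLU6864 and EGR4 in both groups, and the low reads limit NR4A3.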

Other observations

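Among the genes described as EGR targets, PDGFB, which encodes a growth factor for mesenchymal cells, had a lower log2 fold change than EGR1 (-2.38 ± 0.13, SE). The difference between these genes was not tested, and PDGFB was chosen after its values were seen. The BLU6864 libraries held 10 and 14 of its reads and the DMSO libraries 89 and 82, and its log2 fold change was -2.83 ± 0.29 (SE, edgeR adjusted p = 1.3e-08). Both BLU6864 libraries were far below both DMSO libraries. ATF3, also on that list and itself an early gene, went the other way, at 155 and 197 reads in the BLU6864 libraries and 85 and 78 in the DMSO libraries.

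The counts for partners of these factors stand beside 42.2% called over all tested genes, 22.0% lower and 20.3% higher, and neither list had a larger share called in total. Of 13 genes of the NuRD complex, a chromatin remodelling deacetylase that NAB proteins recruit through CHD4, 3 were called lower and 2 higher, with a median log2 fold change of -0.06. GATAD2A fell by 0.60 (SE 0.11) and MTA2 fell by 0.52 (SE 0.11), and MTA3 rose by 0.38 (SE 0.10), with edgeR adjusted p of 5.5e-05, 4.1e-04 and 0.00452. With BLU6864 replicate 2 left out, 1 was called lower and 0 higher (1 at an unadjusted p under 0.05 in edgeR). MTA2 did not pass without BLU6864 replicate 2 (adjusted p = 0.0539), and MTA3 did not pass without BLU6864 replicate 1 (0.129) or 2 (0.109). Of 9 tested partner receptors and coregulators of NR4A proteins, 0 were called lower (also 0 at an unadjusted p under 0.05, with DESeq2 and with limma) and 2 higher. These counts were 3 lower without DMSO replicate 2 and 5 higher without DMSO replicate 1. The genes called higher with all libraries were NCOA3, a coactivator of nuclear receptors (0.70, SE 0.10, edgeR adjusted p = 5.4e-06), and RXRB, a retinoid X receptor (0.46, SE 0.10, edgeR adjusted p = 8.3e-04). NR4A1 and NR4A2 are known to pair with retinoid X receptors.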
